A study of Danio rerio with 12 samples.

Results

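The nuclear-encoded genes of the respiratory chain and ATP synthase were followed across macrophages and endothelial end cells at 3 stages of a brain vessel lesion in zebrafish (Danio rerio). Members were genes whose deposited description contained, ignoring case, NADH dehydrogenase, ubiquinone oxidoreductase, cytochrome c oxidase, cytochrome b-c1 or ATP synthase. Of 125 matching genes, 12 belonged to the mitochondrial genome and were left out by their gene IDs. The remaining genes had to show an RPKM above 0 in at least 2 of the 12 libraries. RPKM corrects the reads of a gene for its length and for library depth, so it allows levels to be compared between genes of different length. This left 111 members of the 33737 listed genes. Just outside the threshold lay ndufa4l2b, with an RPKM above 0 in 1 library, and si:dkey-231l1.12, at 0 in all 12. Just inside lay 4 members that were above 0 in 2 libraries each: taco1, si:dkey-22n8.3, ENSDARG00000057055 and a second COX5B gene, ENSDARG00000068738.

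By their descriptions, 37 members were subunits of complex I, 8 of complex III, 20 of complex IV and 19 of complex V, and 27 were assembly factors, regulators or others. Together the 4 complexes held 84 structural members. A symbol was available for 95 members, and the other 16 are called by gene ID and description. An upper-case symbol may belong to either copy of a duplicated zebrafish gene. Reads of near-identical copies may have been divided between them, so the level of one copy alone is uncertain.

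The libraries formed 6 groups of 2 and came from fish of strain ABGO, with brain given as the tissue. Macrophages were taken at macrophage arrival, at macrophage traction and in an uninjured control, from fish carrying the transgenes Tg(coro1a:Kaeda; flk1:eGFP). In these fish the coro1a promoter, which is active in leukocytes, drives a photoconvertible protein. Cells labelled endothelial end cells were taken at the same 3 stages from fish carrying Tg(flk1:DenNTR; coro1a:eGFP), in which the flk1 promoter, active in vessel cells, drives photoconvertible Dendra2. All groups therefore carried a flk1 and a coro1a transgene, but not the same pair. Cell type and transgenic line cannot be told apart in any comparison of macrophages with endothelial cells below. Per the labels' protocols, about 80 cells were converted in 20 animals with a 405-nm laser for 30 s, heads were digested with trypsin, and converted cells were sorted and amplified with Smart-seq2, a full-length method for very small inputs. The age of the animals is not in the labels, and whether both libraries of a group came from different animals is not labelled either. The p-values below therefore rest on the spread between libraries, which may be technical.

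Complex I passes electrons from NADH to ubiquinone, complex III passes them on to cytochrome c, and complex IV passes them to oxygen. The protons that these complexes move across the inner mitochondrial membrane drive complex V, the ATP synthase. Most subunits are encoded in the nucleus, while a small core set is encoded in the mitochondrial genome. Complex IV has paired isoforms of several subunits whose use differs between tissues in mammals.

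Depth ranged between 12283046 reads in genes (the second macrophage control library) and 39447004 (the second endothelial arrival library), and 8929 to 17011 genes were above 0 per library. Summed macrophage markers reached 11257 to 45459 RPKM in macrophage libraries, against 20.4 to 102 RPKM in endothelial libraries except for 1551 RPKM in endothelial control replicate 2. Summed endothelial markers reached 14.8 to 382 RPKM in macrophage libraries and 292 to 4637 RPKM in endothelial libraries. In the test of macrophages against endothelial cells, 22 of 27 tested macrophage markers were higher, 9 of 20 endothelial markers were lower and 1 was higher. Markers of other cell types were also detected. Erythroid markers reached at most 133 RPKM in sum in macrophage libraries, against 78.0 RPKM in endothelial arrival replicate 1 and 18618 to 65685 RPKM in the other endothelial libraries. The erythroid markers hbae3, hbae1.1, hbae1.3, cahz, hemgn and alas2 were called lower in macrophages in the same test. The part of erythroid RNA in the differences between the cell types was not tested. Photoreceptor and lens markers summed to 1744 RPKM in macrophage traction replicate 1, to 34383 RPKM in endothelial arrival replicate 2 and to 37508 RPKM in endothelial traction replicate 1, against at most 218 RPKM elsewhere. Epidermal markers summed to 1264 RPKM in macrophage control replicate 1 and 2424 RPKM in macrophage traction replicate 2, against 13.3 to 433 RPKM in the other macrophage libraries, and to 2216 RPKM in endothelial traction replicate 2, against 133 to 246 RPKM in the other endothelial libraries. Neuron markers summed to 0.328 to 676 RPKM in macrophage libraries, to 2369 and 2297 RPKM in the endothelial libraries with the high photoreceptor sums and to 38.7 to 630 RPKM in the other endothelial libraries. In such sorted pools fewer cells of a type and less RNA per cell cannot be told apart.

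RNA levels were uneven from one complex to the next. The median over members of each member's median RPKM was 75.9 in complex I, 32.2 in complex III, 27.3 in complex IV and 162 in complex V, and 7.21 among assembly factors, regulators and others. Over all 111 members it was 33.7 RPKM. A median of at least 100 RPKM was reached by 32 members, of which 15 were in complex I, 12 in complex V and 4 in complex IV. In 22 members the median lay under 1 RPKM, and 55 members were above 0 in all 12 libraries. Of the assembly factors, regulators and others, 3 of 27 were above 0 throughout, beside 15 of 19 in complex V and 23 of 37 in complex I. Subunits were thus higher and more evenly detected than the factors that assemble or regulate them.

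The highest member was COX4I1, a nuclear subunit of complex IV, with a median of 951 RPKM over the 12 libraries. In macrophages its level was 1570.2 and 309 RPKM in control, 1493 and 848 in arrival, and 1527 and 861 in traction. In endothelial cells it was 1508 and 544 RPKM in control, 863 and 1268 in arrival, and 1040.2 and 515 in traction. It was high in both cell types and their values overlapped fully, with the lowest level in macrophage control replicate 2. The next complex IV members were COX5B (ENSDARG00000015978), another nuclear subunit, with a median of 652 RPKM and a range of 128 to 1684, and ENSDARG00000053382, described as subunit 7C, with a median of 505 RPKM.

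In complex V the leading members were atp5mc1, ATP5F1C and ATP5MG, at medians of 708, 694 and 689 RPKM. The gene atp5mc1 encodes the c subunit, copies of which form the rotating ring in the membrane. Its macrophage levels were 1635 and 139.9 RPKM in control, 702 and 462 in arrival, and 1786 and 1074 in traction, and its endothelial levels were 713 and 489 RPKM in control, 219.8 and 1597 in arrival, and 1823 and 77.9 in traction. ATP5F1C encodes the gamma subunit, the central shaft of the motor. Its macrophage levels were 939.8 and 28.4 RPKM in control, 876 and 484 in arrival, and 846 and 784 in traction, and its endothelial levels were 0.404 and 605 RPKM in control, 152 and 1618 in arrival, and 911 and 347 in traction. Both genes were far apart between replicates of one group, and the low library was macrophage control replicate 2 for both but differed among endothelial libraries. ATP5MG encodes subunit g of the membrane part and ran from 111 to 1552 RPKM, with macrophage control replicate 2 lowest.

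In complex I, NDUFS7, an iron-sulfur subunit near the ubiquinone site, had the highest median, 244 RPKM, followed by the accessory subunits NDUFB6 with 221 RPKM and NDUFB5 with 219.9 RPKM. NDUFS7 had 212 and 7.81 RPKM in macrophage control, 212 and 218 in arrival and 539 and 378 in traction, and 269 and 285 RPKM in endothelial control, 0.117 and 409.5 in arrival and 349 and 109 in traction. NDUFB5 had 305 and 0.0949 RPKM in macrophage control, 59.6 and 121 in arrival and 462 and 182 in traction, and 0.0611 and 258 RPKM in endothelial control, 46.4 and 414 in arrival and 381 and 285 in traction. NDUFS7 was near 0 in endothelial arrival replicate 1, and NDUFB5 in macrophage control replicate 2 and endothelial control replicate 1, each time beside a high level in the other library of the group. In complex III, UQCRC1 and UQCRC2, which encode the core proteins, had medians of 78.5 and 49.1 RPKM, and the second UQCRC2 copy, uqcrc2a, had 36.4 RPKM. UQCRC1 ran from 12.2 to 90.9 RPKM in macrophages and from 7.45 to 149 RPKM in endothelial cells. Of the members outside the structural subunits, cox17, a copper chaperone for complex IV, was highest, with a median of 174 RPKM and a range of 13.9 to 422 RPKM.

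**Figure D1:**
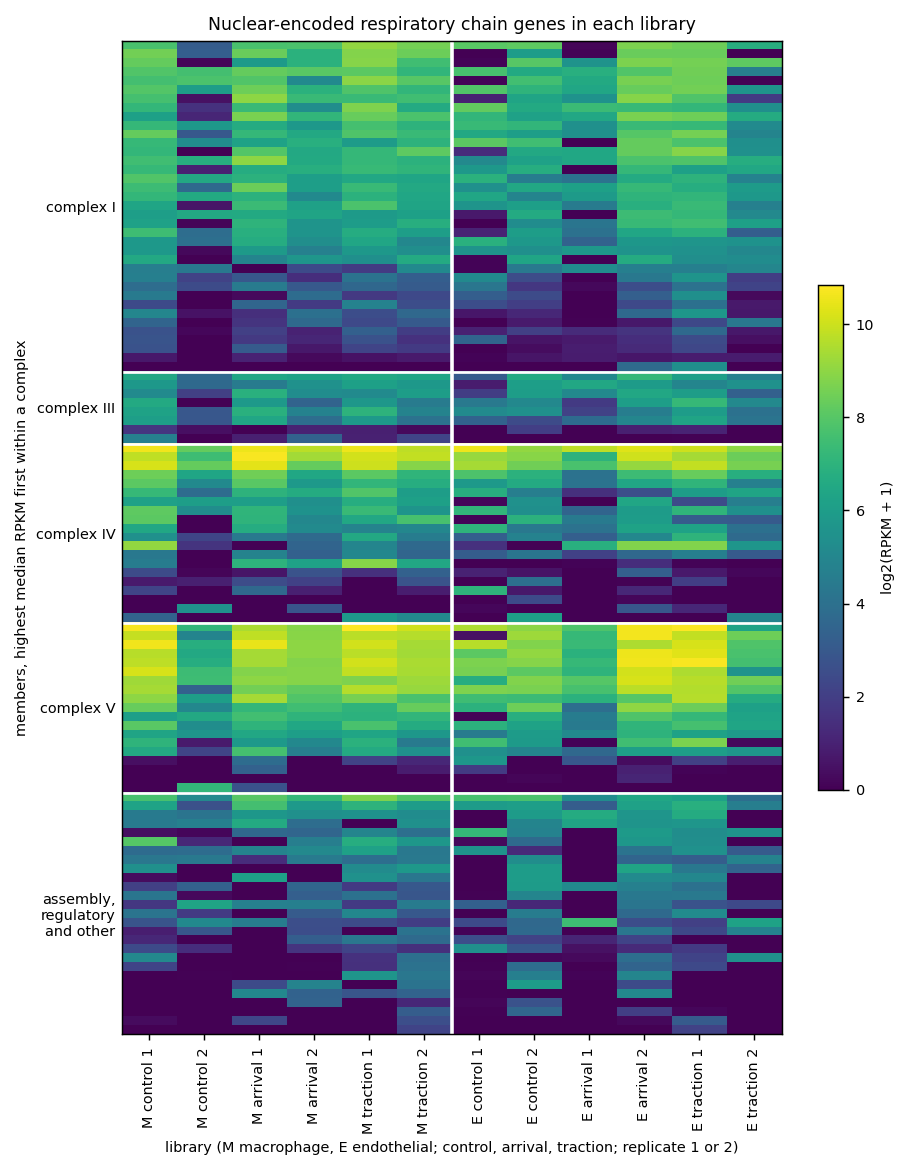
Level of the 111 members, in log2(RPKM + 1), with 1 column per library (macrophage left, endothelial right) and 1 row per member, ordered within each complex by median RPKM. The row with the highest median is COX4I1 in complex IV (951 RPKM), and complex V starts with rows of medians near 700 RPKM. Dark cells are most frequent in macrophage control replicate 2 and in endothelial control replicate 1, arrival replicate 1 and traction replicate 2.

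Summed over the 111 members, RPKM differed widely between replicates of one group. In macrophages the members summed to 20922 and 3680.5 RPKM in control, 19382 and 9756 in arrival, and 21143 and 14395 in traction. In endothelial cells they summed to 10335 and 10186 RPKM in control, 4849.9 and 22360.5 in arrival, and 22002 and 5594 in traction. The highest and the lowest sum were 6.08-fold apart, and both low and high sums occurred in each cell type. The lowest sum came from the library with the fewest reads, macrophage control replicate 2; the part of depth in it was not tested.

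The protein-coding genes of the mitochondrial genome followed these sums in some groups only. They summed to 63048 and 50218 RPKM in macrophage control, 49897 and 28604 in arrival, and 50914 and 25122 in traction. In endothelial cells they summed to 94558 and 39962 RPKM in control, 102535 and 37042 in arrival, and 39387 and 50308 in traction. In every macrophage group the replicate with the lower member sum also had the lower mitochondrial sum. In endothelial control the member sums were nearly equal, 10335 and 10186 RPKM, while the mitochondrial sums were 94558 and 39962 RPKM. In endothelial arrival and traction the replicate with the lower member sum had the higher mitochondrial sum. The ratio of the nuclear sum to the mitochondrial sum ran from 0.0473 in endothelial arrival replicate 1 to 0.604 in endothelial arrival replicate 2, so the 2 ends of this 12.8-fold range lay within 1 group. In macrophages the ratio was 0.332 and 0.0733 in control, 0.388 and 0.341 in arrival, and 0.415 and 0.573 in traction. In endothelial cells it was 0.109 and 0.255 in control, 0.0473 and 0.604 in arrival, and 0.559 and 0.111 in traction. The 2 high endothelial ratios came from the libraries with high photoreceptor and lens markers, whose endothelial markers summed to 605 and 292 RPKM. The part of those cells in the ratio was not tested.

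**Figure D2:**
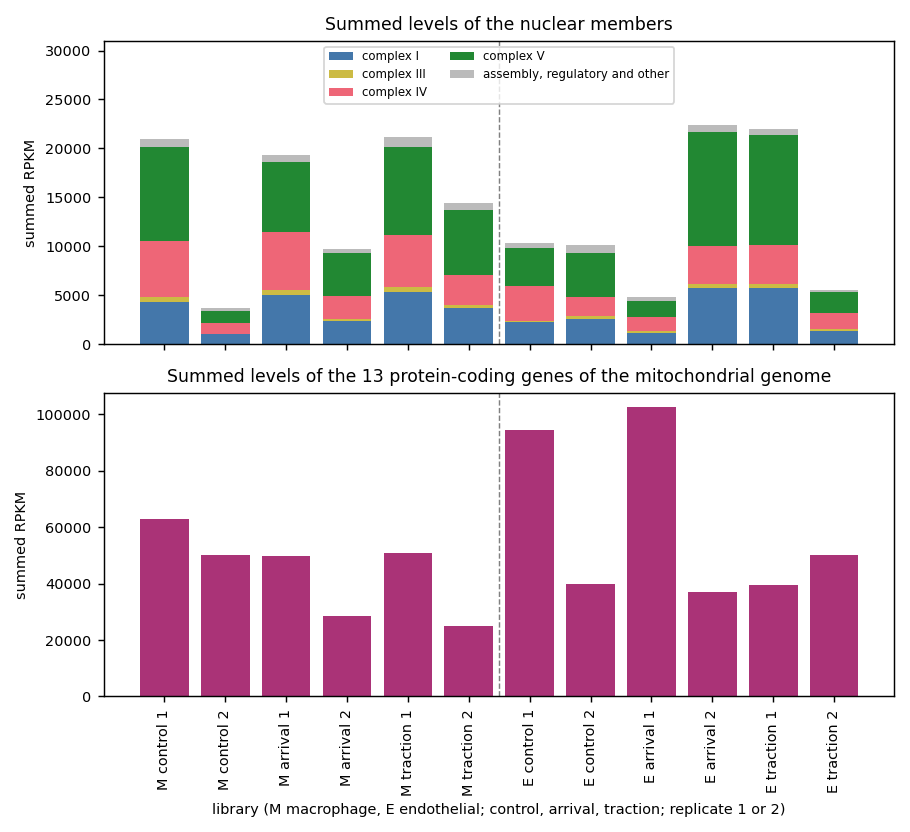
Summed RPKM of the members, stacked by complex, for each library (top), and of the 13 protein-coding genes of the mitochondrial genome (bottom). Macrophage libraries are left and endothelial libraries right. The member sum runs from 3680.5 to 22360.5 RPKM and the mitochondrial sum from 25122 to 102535 RPKM.

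The number of members at 0 also differed between replicates, and the library with the lower sum was not always the one with more members at 0. In macrophages 12 and 32 members were at 0 in control, 20 and 14 in arrival, and 14 and 5 in traction, and in endothelial cells 23 and 10 members in control, 33 and 5 in arrival, and 7 and 30 in traction. Many members were nearly absent from one replicate and plentiful in the other. With at most 10 reads in one replicate and at least 1000 in the other, there were 15 such members in macrophage control, 14 of them low in replicate 2, and 1 each in macrophage arrival and macrophage traction. In endothelial cells there were 18 in control, 17 of them low in replicate 1, 15 in arrival, all low in replicate 1, and 7 in traction, all low in replicate 2. ATP5F1C is an example, with 8 reads in endothelial control replicate 1 and 19606 reads in replicate 2. The same library was therefore low for most of the members that were lost in a group. The same count over all genes is not given, so this loss cannot be called particular to the members.

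The shares of complexes I, IV and V within a library were steadier than the sum. Complex V took from 33.6% to 51.9% of the summed member RPKM and complex IV from 17.5% to 34.5%. Complex V was at 46.2% and 34.1% in macrophage control, 36.8% and 45.0% in arrival, and 42.4% and 45.8% in traction, and at 37.5% and 44.2% in endothelial control, 33.6% and 51.9% in arrival, and 51.0% and 38.0% in traction. Complex I took 20.8% to 28.5% and complex III 0.735% to 3.57%. The 2 libraries with photoreceptor and lens markers had the highest shares of complex V and the 2 lowest shares of complex IV, 17.5% and 18.0%. Ranking the members by RPKM within a library gave rank correlations across the 111 members of 0.541 to 0.909 (median 0.720) for the 6 replicate pairs. They were 0.537 to 0.921 (median 0.730) for 24 pairs from other groups of the same cell type and 0.523 to 0.902 (median 0.729) for 36 pairs across cell types. These correlations are across genes of the same library, which are not independent replicates. The medians over all pairs were thus about alike, but they pool libraries that lost many members. The replicate pairs of macrophage arrival and traction had 0.874 and 0.909, and those of macrophage control and the endothelial groups 0.541 to 0.734. Pairs among macrophage libraries other than control replicate 2 had 0.813 to 0.909. The same libraries paired with endothelial libraries had 0.550 to 0.902.

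Macrophages differed from endothelial cells in 1 member past the threshold. The question was whether the sorted populations differ in the chain over the 3 stages, and it was tested with limma on log2(RPKM + 1), with lesion stage in the model and Benjamini-Hochberg adjustment over the 17613 genes tested. Of the 111 members, 109 passed the filter on low values. The gene cox8b, described as a form of cytochrome c oxidase subunit 8, rose in macrophages, while no member fell. Among all genes tested, 2.82% were called in either direction, 2.15% as higher and 0.676% as lower, so 1 of 109 members is no more than the background. At an unadjusted p under 0.05, 4 members were higher and 0 were lower, and 11.3% of all genes reached that level.

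The gene cox8b had 22.7 and 0 RPKM in macrophage control, 126 and 72.3 in arrival, and 460.0 and 89.4 in traction. Endothelial cells had 0 and 0 RPKM in control, 0.064 and 1.69 in arrival, and 0.0701 and 0 in traction. It was seen in 5 of 6 macrophage libraries at levels above every endothelial library, and macrophage control replicate 2 alone was at 0. The difference was 5.25 ± 1.15 (SE) on the log2(RPKM + 1) scale, with an adjusted p of 0.00752 from limma. Without the 3 libraries that carry photoreceptor and lens markers the difference was 4.55 ± 1.39 and the adjusted p was 0.177, so the call was lost. Leaving out singly the libraries with the highest epidermal sums, the adjusted p from limma was 0.0281 without macrophage traction replicate 2, 0.0277 without macrophage control replicate 1 and 0.0274 without endothelial traction replicate 2. Each of these fits kept the other libraries with high epidermal sums, so the part of epidermal RNA was not tested. The fit without the photoreceptor libraries has fewer libraries. It drops macrophage traction replicate 1, with 460.0 RPKM of cox8b, and endothelial arrival replicate 2 and traction replicate 1, with 1.69 and 0.0701 RPKM. The part of photoreceptor and lens RNA in the difference was not tested either. In mammals COX8B is the form of this small subunit found in heart and skeletal muscle. Summed muscle markers were 46.9 and 129 RPKM in macrophage control, 174 and 18.2 in arrival, and 28.9 and 9.93 in traction. In endothelial cells they were 44.8 and 21.8 RPKM in control, 56.7 and 115 in arrival, and 19.6 and 35.3 in traction. Macrophage arrival replicate 1 had the highest muscle sum, 174 RPKM, with 126 RPKM of cox8b. Macrophage control replicate 2 had a muscle sum of 129 RPKM and no cox8b. Macrophage traction replicate 1, with the most cox8b, had 28.9 RPKM of muscle markers. Endothelial libraries at 0 for cox8b had 21.8 to 44.8 RPKM of them. Of 23 muscle markers, 9 passed the filter on low values, and the part of muscle RNA in the difference was not tested.

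Its partner cox8a, the form found in most tissues of mammals, did not match the member rule by its description and was present in every library of both cell types. It had 714 and 23.0 RPKM in macrophage control, 479 and 174 in arrival, and 435 and 334 in traction. Endothelial cells had 576 and 149 RPKM in control, 66.4 and 555 in arrival, and 693 and 167 in traction. The cell types overlapped, and the difference was -0.14 ± 0.83 on the log2(RPKM + 1) scale with an adjusted p of 0.964 from limma. Of the summed RPKM of the pair, cox8b made up 3.08% and 0% in macrophage control, 20.9% and 29.3% in arrival, and 51.4% and 21.1% in traction. It made up at most 0.304% in any endothelial library. In macrophages the 4 lesion libraries all had a higher share of cox8b than both control libraries. Control replicate 2, with 23.0 RPKM of cox8a, was also the library with the lowest member sum. The share of all genes with 4 lesion libraries above or below both controls is not given. This holds also for COX4I2, NDUFB10, coa3b and cox17 below.

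Among members that missed the threshold, NDUFB6 was 3.59 ± 1.42 higher in macrophages on the log2(RPKM + 1) scale with an adjusted p of 0.264 from limma. Its levels were 371 and 8.51 RPKM in macrophage control, 327 and 119.9 in arrival, and 451 and 339 in traction, against 0 and 62.0 RPKM in endothelial control, 0.073 and 325 in arrival, and 323 and 0 in traction. No macrophage library lacked it, whereas 3 endothelial libraries were at or near 0. These were control replicate 1, arrival replicate 1 and traction replicate 2, the libraries in which most lost members of their groups were low. The complex IV-associated subunit gene ndufa4b had 41.0 to 106 RPKM in all 6 macrophage libraries, against 0.147 and 43.4 RPKM in endothelial control, 0 and 84.0 in arrival, and 4.51 and 24.1 in traction. It was present in every macrophage library and missing or low in 3 endothelial ones. Of these, control replicate 1 and arrival replicate 1 are again libraries in which many members were lost. The difference was 2.91 ± 1.15 with an adjusted p of 0.265 from limma. The part of library-wide loss in the differences of NDUFB6 and ndufa4b was not tested. ENSDARG00000077402, described as a Rieske subunit of complex III, had 25.6 and 0 RPKM in macrophage control, 0.92 and 9.62 in arrival, and 1.02 and 3.65 in traction, and at most 0.0304 RPKM in endothelial cells. Its difference was 2.04 ± 0.89 with an adjusted p of 0.348 from limma. With voom, limma's method for counts, on the recovered reads it was called at an adjusted p of 0.0166, beside cox8b at 0.00101, and voom called 6.38% of all genes. On the lower side, the smallest p-values belonged to NDUFA2 at -0.89, COX4I2 at -1.46, coa3b at -2.02 and ENSDARG00000057055, described as the complex I subunit NDUFS8, at -1.52 on the same scale. ENSDARG00000057055 was at 0 in every library except endothelial arrival replicate 2, with 12.3 RPKM, and endothelial traction replicate 1, with 40.9 RPKM, which are the libraries with high photoreceptor and lens markers.

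As a group the members were little displaced between the cell types. The median difference over the 109 members was 0.33 on the log2(RPKM + 1) scale, and 83 members (76.1%) lay above 0. Over all genes tested the median was 0.19 and 57.9% lay above 0. By complex the median was 0.24 in complex I, 0.39 in complex III, 0.59 in complex IV and 0.27 in complex V. With TMM scaling of the libraries the member median was -0.01 and with quantile normalization 0.02, so its direction rests on the scaling. No member was at 0 in every library of one cell type and above 0 in at least 4 of the other.

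**Figure D3:**
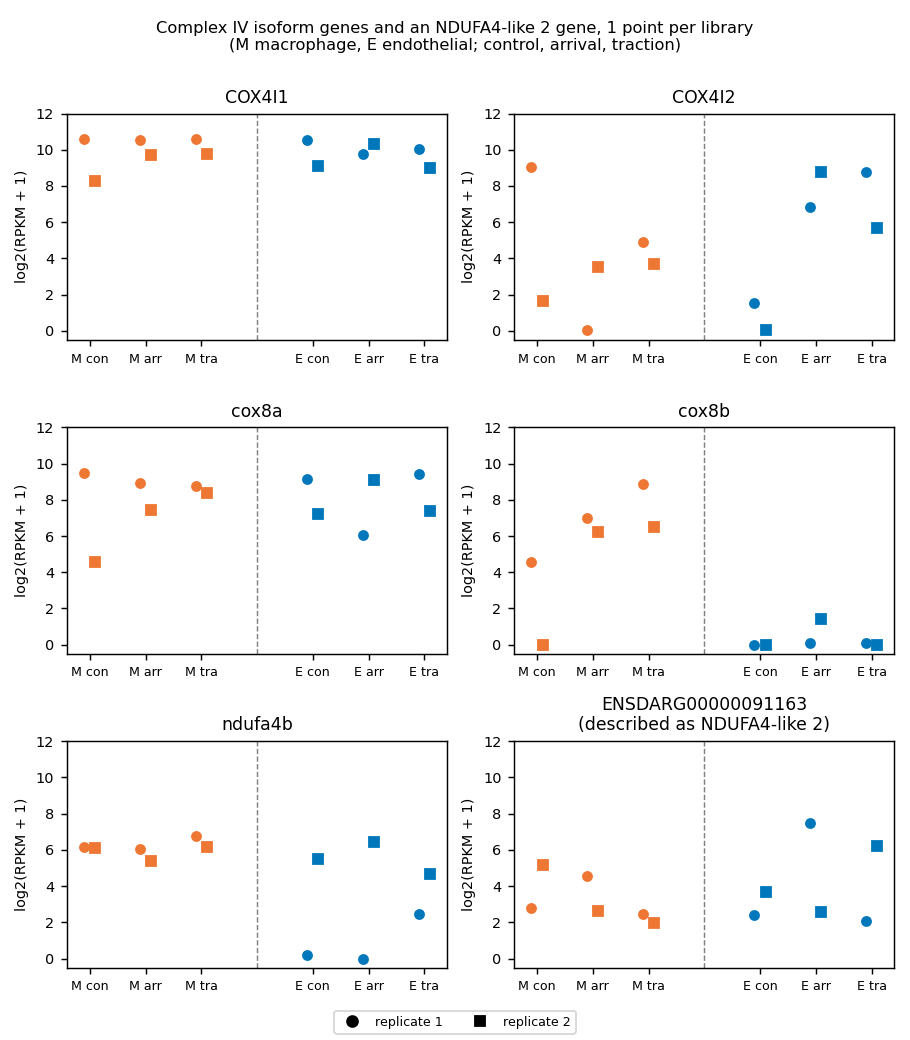
Level, in log2(RPKM + 1), of complex IV isoform genes and of an NDUFA4-like 2 gene, with 1 point per library, macrophage groups left and endothelial groups right. The gene cox8b lies between 22.7 and 460.0 RPKM in 5 macrophage libraries and at most at 1.69 RPKM in endothelial libraries, while COX4I2 lies between 0.0529 and 535 RPKM in macrophage and between 0.0332 and 442 RPKM in endothelial libraries.

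Among the other paired subunits of complex IV, subunit 4 had a second form that was high in a few libraries. COX4I2 encodes the second form of subunit 4, which in mammals is the form of lung and of oxygen-sensing cells. It had 535 and 2.11 RPKM in macrophage control, 0.0529 and 10.3 in arrival, and 29.5 and 12.1 in traction. Endothelial cells had 1.90 and 0.0332 RPKM in control, 113 and 439.7 in arrival, and 442 and 49.6 in traction. All 4 endothelial lesion libraries were above both endothelial controls, while in macrophages a single control library was the highest. The 2 highest endothelial values, 439.7 and 442 RPKM, came from the libraries with high photoreceptor and lens markers, whose part in them was not tested. Of the summed RPKM of COX4I1 and COX4I2, COX4I2 made up 25.4% and 0.677% in macrophage control, 0.00354% and 1.20% in arrival, and 1.90% and 1.38% in traction. It made up 0.126% and 0.00611% in endothelial control, 11.6% and 25.7% in arrival, and 29.8% and 8.78% in traction. A further gene described as subunit 4 isoform 2, cox4i1l, was at 0 in 7 libraries and reached 69.5 RPKM in endothelial control replicate 2.

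A gene described as NDUFA4-like 2, ENSDARG00000091163, a relative of the complex IV-associated subunit whose human form is induced by low oxygen, had 6.02 and 34.6 RPKM in macrophage control, 22.6 and 5.05 in arrival, and 4.56 and 2.91 in traction. In endothelial cells it had 4.33 and 11.8 RPKM in control, 179 and 4.94 in arrival, and 3.14 and 73.6 in traction. It was highest in endothelial arrival replicate 1 and traction replicate 2, the endothelial lesion libraries with the lower photoreceptor and lens sums, 218 and 16.6 RPKM. In mouse brain its counterpart marks pericytes, the cells wrapped around capillaries. Pericyte and smooth muscle genes were read out after these values were seen. KCNJ8 and KCNE4 had 64.6 and 43.2 RPKM in endothelial arrival replicate 1, against at most 0.0419 and 1.89 RPKM in every other library. ABCC9, CSPG4 and NOTCH3 stayed at or under 0.468, 1.75 and 9.46 RPKM, and rgs5b was at or near 0 in the 4 endothelial lesion libraries. MYH11, a smooth muscle myosin, had 6.89 RPKM in endothelial arrival replicate 1 and 35.6 RPKM in traction replicate 2, against at most 0.140 RPKM in the other endothelial libraries, and up to 22.0 RPKM in macrophages. TAGLN (ENSDARG00000033466), an actin-binding protein of smooth muscle, had 196 and 175 RPKM in the same 2 libraries, its highest endothelial values, and 33.4 to 164 RPKM in the other endothelial libraries, and it reached 262 RPKM in macrophages. The highest endothelial values of ABCC9, CSPG4, NOTCH3 and rgs5b were in other libraries, and rgs5b had 27.6 to 814 RPKM in macrophages. The second TAGLN gene, lamc3, acta2 and RGS5 stayed at or under 7.38 RPKM in every library. The part of pericytes or smooth muscle cells in the levels of ENSDARG00000091163 or COX4I2 was not tested.

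The other isoform families were mixed within both cell types. The subunit 7A genes gave 3 patterns. COX7A2 ran from 3.81 to 129 RPKM in all libraries, cox7a1 (described as 7A2) had 132 RPKM in endothelial control replicate 1 and at most 11.5 RPKM elsewhere, and ENSDARG00000086341, also described as 7A2, ran from 1.83 to 236 RPKM. For subunit 6B, cox6b2 (described as 6B1) was above 15 RPKM in every library, with 344 and 82.5 RPKM in macrophage control and 221 and 122 RPKM in endothelial control. Its partner cox6b1 had 275 and 0 RPKM in macrophage control, 131 and 31.6 in arrival, and 89.4 and 206 in traction, and 0.0829 and 122 RPKM in endothelial control, 20.5 and 63.2 in arrival, and 7.71 and 7.31 in traction. The partner was at or near 0 in 1 control library of each cell type. For subunit 6A, cox6a1 (ENSDARG00000022438) ran from 16.5 to 271 RPKM, while the second gene, COX6A1 (ENSDARG00000054588), stayed at or under 14.6 RPKM. For subunit 5A, cox5aa had at most 9.17 RPKM, and ENSDARG00000018119 ran from 0 to 131 RPKM.

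In complex V, 3 genes for the c subunit differed in level and in spread. Beside atp5mc1, atp5mc3b had 811 and 91.0 RPKM in macrophage control, 668 and 509 in arrival, and 836 and 636 in traction, and 274 and 537 RPKM in endothelial control, 122 and 1521 in arrival, and 1301 and 207 in traction. ATP5MC3 had 79.8 and 48.7 RPKM in macrophage control, 89.9 and 66.4 in arrival, and 81.4 and 53.0 in traction, and 21.5 and 60.1 RPKM in endothelial control, 35.6 and 128 in arrival, and 75.0 and 55.1 in traction. ATP5MC3 was the lower and the steadier copy, detected in all libraries. The inhibitor genes atp5if1a and atp5if1b, whose proteins stop the ATP synthase from running backwards and which did not match the member rule, ran from 7.32 to 221 RPKM and from 45.1 to 245 RPKM and were never at 0.

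Within macrophages, the first question was what changed when a macrophage had arrived at the lesion, compared with the uninjured control. No member was called by limma, and of all genes 0% were called. At an unadjusted p under 0.05, 3 members were higher and 0 lower, beside 4.16% of all genes. Voom called 0 members and 1.2% of genes, and among 106 members with a p-value in the authors' deposited table, 0 had one under 0.05, beside 1.31% of its genes. The median difference over the members was 0.66 on the log2(RPKM + 1) scale with 79 of 109 above 0, where all genes had a median of 0.00. That median was -0.47 without macrophage control replicate 2 and 1.72 without replicate 1, so which control library is used sets its sign. Both arrival libraries were above both controls in 12 members (all genes 12.5%) and below both in 2 (all genes 11.1%). As a share of the 109 members these are 11.0% and 1.83%, so the higher side was near the background and the lower side under it.

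The smallest p in this comparison belonged to NDUFB10, an accessory subunit of complex I, with 69.5 and 1.22 RPKM in macrophage control, 399.8 and 137 in arrival, and 314 and 218 in traction. All 4 lesion libraries lay above both controls. Its difference at arrival was 4.23 ± 1.56 on the log2(RPKM + 1) scale, with an adjusted p of 1 from limma. NDUFAF6, an assembly factor of complex I, had 0 and 0 RPKM in macrophage control, 31.1 and 9.68 in arrival, and 6.32 and 9.89 in traction, and differed by 4.21 ± 1.74 at arrival (limma, adjusted p of 1). The gene cox8b, given above, differed by 4.31 ± 1.85. In the other direction COX4I2 differed by -3.56 ± 2.19 and NDUFS1 by -3.26 ± 1.90. NDUFS1 encodes the largest iron-sulfur subunit of complex I and had 23.8 and 19.2 RPKM in macrophage control, 0.0203 and 4.33 in arrival, and 2.69 and 34.03 in traction. It was low in 3 of the 4 lesion libraries and highest in the other.

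Between macrophage traction and control, limma again called 0 members and 0% of all genes. At an unadjusted p under 0.05, 4 members were higher and 0 lower, beside 5.96% of all genes. Voom called 1 member, ATPAF2, and 2.65% of genes. In the authors' deposited table, 2 of 108 members had a p under 0.05, beside 2.75% of its genes: ATPAF2 with p = 0.014 and si:dkey-22n8.3, described as coupling factor 6 of ATP synthase, with p = 0.031. These p-values are unadjusted. By the authors' adjusted p, 0 members were under 0.05 in any stage comparison. The median member difference was 1.07 with 89 of 109 above 0, where all genes had a median of 0.26. It was -0.14 without macrophage control replicate 2 and 2.26 without replicate 1. Both traction libraries lay above both controls in 18 members (16.5%, all genes 19.1%) and below both in 2 (1.83%, all genes 11%).

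ATPAF2, a chaperone that helps to assemble the catalytic head of ATP synthase, had 0 and 0.0415 RPKM in macrophage control, 0 and 0 in arrival, and 48.7 and 18.6 in traction. Endothelial cells had 0.107 and 24.9 RPKM in control, 0.0783 and 29.8 in arrival, and 0.0214 and 0 in traction. Among macrophages it was detected above 1 RPKM in both traction libraries and in no other. The difference of traction from control was 4.93 ± 1.88 on the log2(RPKM + 1) scale with an adjusted p of 0.716 from limma. The difference for cox8b was 5.39 ± 1.85 with an adjusted p of 0.619, and for NDUFB10 it was 4.39 ± 1.56. The complex IV assembly factor coa3b had 0.335 and 0.129 RPKM in macrophage control, 11.5 and 10.7 in arrival, and 29.3 and 14.5 in traction. In macrophages its lesion libraries were all above the controls, and its difference at traction was 4.14 ± 1.94. In endothelial cells, coa3b was highest in control replicate 1, with 148 RPKM. On the lower side, si:dkey-22n8.3 had 143 RPKM in macrophage control replicate 2, 5.63 RPKM in arrival replicate 1 and 0 in all other libraries. ENSDARG00000011208, described as COX5B, likewise had 43.4 RPKM in macrophage control replicate 2 and at most 6.41 RPKM elsewhere.

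Between macrophage traction and arrival, limma called 0 members and 0.00568% of all genes, and at an unadjusted p under 0.05, 3 members were higher and 0 lower, beside 3.36% of all genes. Voom called 3 members and 1.73% of genes. In the authors' deposited table, 2 of 108 members had a p under 0.05, ATPAF2 and cox4i1l, beside 2.79% of its genes. Each of the 3 members by voom was at 0 in both arrival libraries: ATPAF2 (difference by limma 4.96 ± 1.88), cox4i1l with 55.0 and 33.3 RPKM in traction (5.45 ± 2.13), and ENSDARG00000018800, described as the complex IV assembly factor COX20, with 36.0 and 53.8 RPKM in traction (5.49 ± 2.39). Of these, ENSDARG00000018800 had 42.0 RPKM in macrophage control replicate 1 and cox4i1l had 9.98 RPKM there, so their absence was in the arrival libraries and in 1 control. The median member difference was 0.23, with 76 of 109 above 0, and 0.11 over all genes. Both traction libraries lay above both arrival libraries in 24 members (22.0%, all genes 14.9%) and below both in 5 (4.59%, all genes 9.39%).

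In endothelial cells at arrival compared with control, limma called 0 members and 0% of all genes. At an unadjusted p under 0.05, 1 member was higher and 1 lower, beside 4.08% of all genes. Voom called 0 members and 1.88% of genes. In the authors' deposited table, 1 of 108 members had a p under 0.05, beside 1.31% of its genes. This was COX4I2, which the authors' deposited table gives an unadjusted p = 0.024. By the adjusted p in that table, 0 members were under 0.05. The authors' deposited table lists its mean normalized count as 5469 in arrival and 32.4 in control. By limma COX4I2 differed by 7.02 ± 2.19 on the log2(RPKM + 1) scale, with an adjusted p of 0.824. Its higher arrival value came from the library with high photoreceptor and lens markers. The one lower member was ENSDARG00000086341, with 109 and 23.8 RPKM in endothelial control, 1.83 and 5.13 in arrival, and 65.1 and 79.2 in traction, a difference of -3.65 ± 1.59. It was low in both arrival libraries only among the endothelial groups. Over the members the median difference was 0.00, with 53 above 0 and 53 below, and all genes had 0.00. It was 0.98 without arrival replicate 1 and -1.26 without the photoreceptor libraries, which leaves arrival replicate 1 alone. Both arrival libraries lay above both controls in 9 members (all genes 10.4%) and below both in 6 (all genes 11.8%).

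Between endothelial traction and control, limma called 0 members and 0% of all genes, with 1 member higher and 0 lower at an unadjusted p under 0.05 beside 3.8% of all genes. Voom called 0 members and 1.8% of genes, and in the authors' deposited table, 1 of 110 members, cox7a1 with p = 0.030, had a p under 0.05 beside 1.32% of its genes. COX4I2 was again the higher member, by 6.43 ± 2.19 on the log2(RPKM + 1) scale with an adjusted p of 0.979 from limma. Its higher traction value came from the library with high photoreceptor and lens markers. The controls are the same libraries as in the arrival comparison. The copper chaperone cox17 differed by -2.66 ± 1.36, with an adjusted p of 0.979 from limma. It had 207 and 212 RPKM in endothelial control, 37.5 and 84.0 in arrival, and 73.0 and 13.9 in traction. Its control libraries were close to each other and above all 4 lesion libraries. In macrophages cox17 had 205 and 33.5 RPKM in control, 260.2 and 143 in arrival, and 422 and 238 in traction. Both traction libraries were above both controls, a difference of 1.91 ± 1.36 with an adjusted p of 0.877 from limma. The median member difference in endothelial cells was 0.19, with 64 of 109 above 0, and -0.01 over all genes. It was -0.69 without the photoreceptor libraries and 1.08 without traction replicate 2. Both traction libraries lay above both controls in 11 members (10.1%, all genes 8.7%) and below both in 8 (7.34%, all genes 14.5%).

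Between endothelial traction and arrival, limma called 0 members and 0% of all genes, with 1 member higher and 0 lower at an unadjusted p under 0.05 beside 3.38% of all genes. Voom called 0 members and 1.56% of genes, and the authors' deposited table marked 0 of 110 members and 1.63% of its genes. ENSDARG00000086341, whose values are given above, was the higher member, by 4.13 ± 1.59 on the log2(RPKM + 1) scale. On the lower side NDUFS4, an accessory subunit of complex I, differed by -3.34. Its levels were 0.0834 and 188 RPKM in endothelial control, 95.7 and 390.5 in arrival, and 348 and 0.0561 in traction, so 1 library each of control and traction was near 0. Of the members, 2 lay above in both traction libraries (1.83%, all genes 7.9%) and 7 below (6.42%, all genes 11.5%). The median member difference was 0.18, with 64 of 109 above 0, and 0.00 over all genes. It was -0.96 without arrival replicate 1 and 1.20 without arrival replicate 2.

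The question whether the lesion acted differently on the chain in macrophages and in endothelial cells was tested as the macrophage change minus the endothelial change. For arrival against control, limma called 0 members and 0% of all genes, with 2 members higher and 2 lower at an unadjusted p under 0.05 beside 3.57% of all genes, and voom called 0 members and 0.21% of genes. The smallest p was that of COX4I2, at -10.58 ± 3.10 on the log2(RPKM + 1) scale with an adjusted p of 0.949. It rests on macrophage control replicate 1, where COX4I2 had 535 RPKM, as well as on the endothelial lesion libraries. Next came coa3b (6.35 ± 2.74), NDUFS1 (-5.98 ± 2.69) and ENSDARG00000086341 (4.93 ± 2.26).

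For traction against control, limma called 0 members and 0% of all genes, with 3 members higher and 1 lower at an unadjusted p under 0.05 beside 4.2% of all genes. Voom called 1 member, ATPAF2, at an adjusted p of 0.0404, and 0.352% of genes. By limma ATPAF2 differed by 7.34 ± 2.66, and COX11, a copper-inserting assembly factor of complex IV, by 5.78 ± 2.30. The gene cox17 differed by 4.58 ± 1.92 and COX4I2 by -7.46 ± 3.10. Each of them had an adjusted p of 0.953 from limma. COX11 had 1.32 and 0 RPKM in macrophage control, 0 and 8.39 in arrival, and 18.4 and 12.3 in traction, and 5.08 and 3.44 RPKM in endothelial control, 1.17 and 3.59 in arrival, and 0 and 0 in traction. It was highest in macrophage traction and absent from endothelial traction. The median member interaction was 0.66 at arrival (all genes -0.06) and 0.92 at traction (all genes 0.34), and without macrophage control replicate 2 it was -0.60 and -0.52, against 2.18 and 2.19 without replicate 1.

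**Figure D4:**
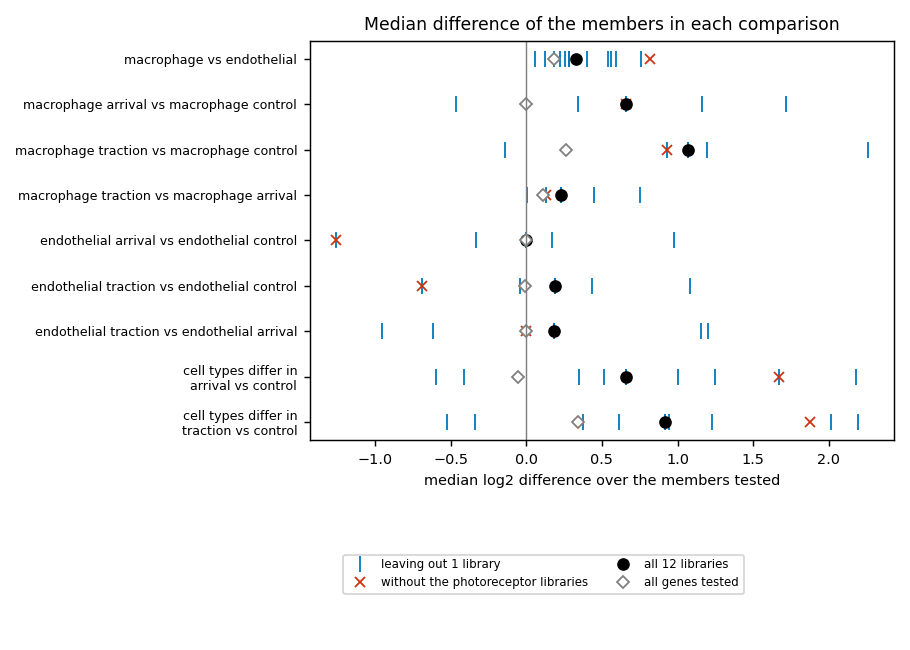
Median difference in log2(RPKM + 1) over the 109 tested members for each comparison, beside the median over all 17613 tested genes and the values with 1 library or the 3 photoreceptor libraries left out. The members' medians run from 0.00 to 1.07, and leaving out macrophage control replicate 2 takes the macrophage arrival and traction medians to -0.47 and -0.14.

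Other mitochondrial and energy genes were read in 8 related lists with 183 tested genes, beside the 13 protein-coding genes of the mitochondrial genome. Between macrophages and endothelial cells limma called 1 of the 183, SLC16A1 (ENSDARG00000016963), a carrier of lactate and other monocarboxylates. It ranged from 0 to 0.246 RPKM in macrophages, against 53.3 to 211 RPKM in endothelial cells, with no overlap. Its difference was -6.78 ± 0.99 on the log2(RPKM + 1) scale with an adjusted p of 9.45e-05 from limma, the only call among 38 tested genes of glycolysis and of glucose or lactate transport. The part of erythroid RNA in this difference was not tested. Voom called 7 of the 183 (3.83%, all genes 6.38%), and 12 had an unadjusted p under 0.05 (6.56%, all genes 11.3%), 9 of them higher, so both shares were under the background.

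In the stage comparisons limma called none of these 183 genes. For macrophage traction against control, 22 had an unadjusted p under 0.05 (12.0%, all genes 5.96%), all of them higher, and voom called 10 (5.46%, all genes 2.65%). There the median difference was 3.23 in mitochondrial protein import and chaperones, with 18 of 18 tested genes above 0, 2.41 in the mitochondrial ribosome, with 58 of 63 above 0, and 2.21 in glycolysis, with 30 of 38 above 0. Complex II had a median of 1.25 with 8 of 8 above 0, and pyruvate entry and the citric acid cycle had 1.19 with 16 of 22 above 0. The 13 genes of the mitochondrial genome went the other way, with a median of -1.02, 1 above 0, 0 called by limma, 1 with an unadjusted p under 0.05 and 1 called by voom. Mitochondrial oxidant defence had 1.44 with 12 of 12 above 0, cytochrome c with other carriers 1.33 with 8 of 10 above 0, and regulators of mitochondrial biogenesis 0.69 with 10 of 12 above 0. All but the last of these nuclear lists had a higher median than the 1.07 of the chain members, beside 0.26 over all genes. They share the low macrophage control replicate 2, whose part in them was not tested. For macrophage arrival against control 19 had an unadjusted p under 0.05 (10.4%, all genes 4.16%), 15 of them higher, and voom called 9 (4.92%, all genes 1.2%). For macrophage traction against arrival the counts were 3 (1.64%, all genes 3.36%) and 4 by voom (2.19%, all genes 1.73%). In endothelial cells 8 genes had an unadjusted p under 0.05 at arrival against control (4.37%, all genes 4.08%), 9 at traction against control (4.92%, all genes 3.8%) and 4 at traction against arrival (2.19%, all genes 3.38%). Voom called 2 at arrival against control (1.09%, all genes 1.88%), 3 at traction against control (1.64%, all genes 1.8%) and 2 at traction against arrival (1.09%, all genes 1.56%). In the interactions 11 genes had an unadjusted p under 0.05 at arrival (6.01%, all genes 3.57%) and 13 at traction (7.1%, all genes 4.2%), and voom called 1 in each (0.546%, all genes 0.21% and 0.352%). The macrophage comparisons with the control and the interactions all use macrophage control replicate 2.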

How the data were processed

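Genes were measured by RNA sequencing in 12 Smart-seq2 libraries, 6 groups of 2, grouped by the labelled cell type and lesion stage. The submitters' processing notes name DESeq 1.16.0, HTSeq 0.6.0, TopHat2 2.0.12 and Bowtie2 2.2.3; the genome build is not given in the sources used here. The authors deposited RPKM for 33737 genes in each library, per the file headers. The authors also deposited, per pair of stages, group means of normalized counts, a signal scaled by size factors, and a p-value and an adjusted p-value per gene. The authors' p-values printed above are unadjusted.

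From RPKM and these group means, whole reads were recovered: 100% of values above 0 were whole within 0.05 reads. They served for the filter, for read counts and for voom. No table of counts per library was used, so the main test was limma 3.58.1 in R 4.3.3 (trend and robust variances) on log2(RPKM + 1), with a mean per group, or with stage and cell type. This scale understates changes of low genes. Tested were the 17613 genes that reached 10 reads, scaled to the median depth, in 2 or more libraries and 15 reads in total. Tests were two-sided, with Benjamini-Hochberg adjustment and a threshold of 0.05. The models were run on simulated reads, drawn independently per gene with the same dispersion for all genes. These lack the loss of many members in the same library, so no conclusion about these data is drawn from them. No molecular identifiers are named, so reads are not independent molecules.

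Members and lists were chosen with earlier results of these data known. Named members were those past the threshold, the 4 with the smallest p in each direction and comparison, the 3 highest of each complex and the isoform families; of these the text gives those with the largest differences in full. Mural cell genes and the crossed pairing were added after values were seen. Alternatives were pseudocount 0.1, no filter, TMM scaling, quantile normalization, voom, a replicate block, structural subunits only, leaving out each library and leaving out the 3 libraries with photoreceptor markers.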

Additional observations from a re-analysis of the deposited data

Results flagged for a closer look

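In groups of 6 libraries of one cell type, 3 values stood far from the other 5. The threshold gives about 1 such value in 20 groups when values are normally distributed, and 24 groups were looked at. RPKM with values at 0 and 3 stages in a group need not follow that rate, so no expected number is given. The gene cox8b had 460.0 RPKM in macrophage traction replicate 1, against 0 to 126 RPKM in the other macrophage libraries. That library also had 1744 RPKM of photoreceptor and lens markers. Endothelial arrival replicate 2 and traction replicate 1, with 34383 and 37508 RPKM of these markers, had 1.69 and 0.0701 RPKM of cox8b. The part of photoreceptor and lens RNA in the cox8b levels was not tested. In endothelial cells cox8b had 1.69 RPKM in arrival replicate 2, against 0 to 0.0701 RPKM in the others. COX4I2 had 535 RPKM in macrophage control replicate 1, against 0.0529 to 29.5 RPKM in the other macrophage libraries.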

How the results depend on the processing

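Of 72 named differences, 58 kept their sign under every setting. Members called moved with voom to 2 between cell types, 1 for macrophage traction against control, 3 for traction against arrival and 1 for the traction interaction. Without the photoreceptor libraries the call of cox8b between cell types was lost. In those other comparisons that setting leaves 1 library in macrophage traction, assumed to vary like the rest, so calls there are not counted. Over all settings the adjusted p of cox8b between cell types ran from 0.00101 to 0.177, and with 1 library left out from 0.00165 to 0.0356. Without the photoreceptor libraries COX4I2 between cell types was 0.10, and ENSDARG00000087216 was 0.83 for macrophage traction against control and 0.18 against arrival. With 1 library left out, ranges that crossed 0 were: NDUFA2 between cell types -1.44 to 0.085; macrophage arrival against control, COX4I2 -7.28 to 0.15 and si:dkey-22n8.3 -5.81 to 1.36; macrophage traction against control, ENSDARG00000087216 -4.54 to 0.83; macrophage traction against arrival, ENSDARG00000087216 -5.19 to 0.18, si:ch211-140m22.7 -2.97 to 0.41 and NDUFAF7 -2.84 to 0.60. In endothelial cells they were, for arrival against control, ATP5F1C -0.28 to 8.47, NDUFS3 -7.80 to 0.46 and NDUFS7 -7.96 to 0.56, for traction against control ATP5F1C -0.10 to 8.65, and for traction against arrival NDUFS7 -1.06 to 7.46 and NDUFS4 -7.53 to 0.84. The cause was not tested. A replicate block changed no count of members called, and the adjusted p of cox8b was 0.00762 with it. Replicate numbers did not pair the libraries, with correlations of -0.211 to 0.140 between same-numbered deviations. Crossed numbers for endothelial traction and arrival, chosen after seeing the data, gave 0 members called. Members lost in a library limit all stage comparisons: the spread of the median member between replicates was 1.63 on the log2 scale.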
